A study of Mus musculus with 9 samples.

Results

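The 10 genes described here encode the erythropoietin receptor (Epor), its kinase Jak2, the transcription factors Stat5a and Stat5b, the feedback inhibitors Cish, Socs1, Socs2, Socs3 and Sh2b3, and the target kinase Pim1. They were chosen by gene function and taken by symbol from an expression table of 20368 genes, in which all 10 were present. RNA was sequenced from CD71+Ter119+ cells sorted from the spleens of C57BL/6 mice aged 4 weeks. CD71 is the transferrin receptor and Ter119 marks the erythroid lineage. The mice were wildtype, Dhh+/- (heterozygous) or Dhh-/- (knockout), Dhh encoding Desert hedgehog, a secreted signalling protein, and each genotype had 3 libraries. How the Dhh allele was made, and whether separate mice gave the 3 libraries of a genotype, is not given in the sources used here. The p-values therefore measure the spread between these libraries, which may be technical.

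Erythropoietin is the hormone that keeps erythroid precursors alive and dividing. It binds a receptor dimer whose cytoplasmic part carries JAK2. The active kinase phosphorylates tyrosines of the receptor tail, STAT5 docks there and is phosphorylated in turn, and STAT5 dimers then activate genes in the nucleus. Several of those genes encode inhibitors that shut the receptor down, so that transcripts such as Cish are commonly read as a record of recent signalling. Dependence on the hormone is strongest in early precursors and fades as erythroblasts mature.

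Sequence is shown for the most abundant of the genes, for the feedback gene with a STAT-type motif, and for the STAT5 pair because their transcripts share bases. The RefSeq promoter table (GRCm38.p6, the assembly of mm10) held 9 of the 10 genes, with 12 start sites, and the 250 bases before each start were searched. The STAT-type motif was TTCNNNGAA, which reads the same on both strands, and the GATA-type motif was GATAA on either strand. TTCNNNGAA was found before 1 of the 9 genes, Socs3, and before 7.02% of all 32851 start sites. GATAA was found before 2 of the 9, Epor and Cish, and before 22.58% of all start sites. The Epor stretch is the minus strand of chr9:21963577-21963826, ending at the last base before the start, and its capitals mark the GATAA motif on the opposite strand. The Socs3 stretch is the minus strand of chr11:117969502-117969530, with the TTCNNNGAA match in capitals, 154 to 146 bases before the RefSeq start. The RefSeq starts differ from the ends of the GENCODE gene models given below. The Socs3 stretch lies inside the GENCODE span of Socs3, where none of the searched window is annotated as UTR. All 250 bases searched for Cish lie inside its GENCODE span and are annotated as UTR. The bases before the GENCODE starts of Socs3 and Cish were therefore not searched. The third stretch is the first 60 bases of a 324-base run (GENCODE M21 transcripts) that is identical in the coding sequences of Stat5a and Stat5b.
Epor upstream: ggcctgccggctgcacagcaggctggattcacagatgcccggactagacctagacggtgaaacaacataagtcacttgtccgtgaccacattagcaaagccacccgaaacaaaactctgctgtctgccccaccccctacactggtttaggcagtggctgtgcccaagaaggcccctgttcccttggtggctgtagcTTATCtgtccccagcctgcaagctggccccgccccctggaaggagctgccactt
Socs3 site: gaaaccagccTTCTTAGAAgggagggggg
Stat5a and Stat5b shared coding run: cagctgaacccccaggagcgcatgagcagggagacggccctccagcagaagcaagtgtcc
A match is a description of the letters in this window and not evidence of binding. Over 2294 aligned coding bases the STAT5 pair was 90.7% identical. Of the 50-base windows of the Stat5a transcript, 17.1% occurred unchanged in that of Stat5b, so reads from these stretches could be assigned to either gene, and the 2 levels are uncertain to that extent.

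The values are called FPKM here (reads scaled by gene length and library size), a unit read from the values because the deposited table names none. Reads recovered from the table, as the smallest whole numbers that fit each gene, totalled 7052182 to 14231566 per library. 4 libraries (wildtype 1 and 2, heterozygous 2 and knockout 2) were shallower than the other 5. The erythroid genes Gata1, Klf1, Tfrc and Alas2 were high in each library, the lowest of their values being 171 FPKM for Gata1. Other blood cells were represented as well. The summed level of 31 leukocyte markers ran from 489 FPKM in wildtype 3 to 3492 FPKM in knockout 2, and 29 of the 31 were above 0 in each library. By genotype the sums were 489 to 3447 (wildtype), 1517 to 2122 (heterozygous) and 1083 to 3492 FPKM (knockout). Defining markers had wide ranges: Cd3e of T cells 0.0521 to 8.39, C1qa of macrophages 12.2 to 198, S100a8 of neutrophils 67.7 to 348, and Mcpt8 of basophils 1.07 to 16.8 FPKM. Pf4 of platelets was at 0 in 1 library and at most 1.18 FPKM. Wildtype 3 stood apart with the lowest sum for B cell, T cell, natural killer cell, macrophage and basophil markers. Dhh was listed at 0 in 8 of 9 libraries, the wildtype ones included, so it does not check the genotype labels.

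The receptor end of the pathway was far above the STAT5 end. By mean FPKM over the 9 libraries the order was Epor (243), Pim1 (223), Jak2 (58.3), Cish (14.4), Stat5b (7.43), Sh2b3 (7.37), Stat5a (3.91), Socs3 (3.26), Socs1 (0.76) and Socs2 (0.403). Epor was above Pim1 in 8 of 9 libraries with overlapping ranges, and Stat5b was above Sh2b3 in only 3 of 9, so these neighbours were not separated. Stat5a was above Socs3 in 6 of 9 libraries, and the ranges of Sh2b3 and Stat5a and of Socs1 and Socs2 also overlapped. The ranges of Pim1 and Jak2, of Jak2 and Cish, of Cish and Stat5b, and of Socs3 and Socs1 did not overlap. A limit of at least 1 FPKM in 3 libraries was passed by 9543 genes, among them 8 of the 10. Socs1 and Socs2 did not pass it.

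**Figure D1:**
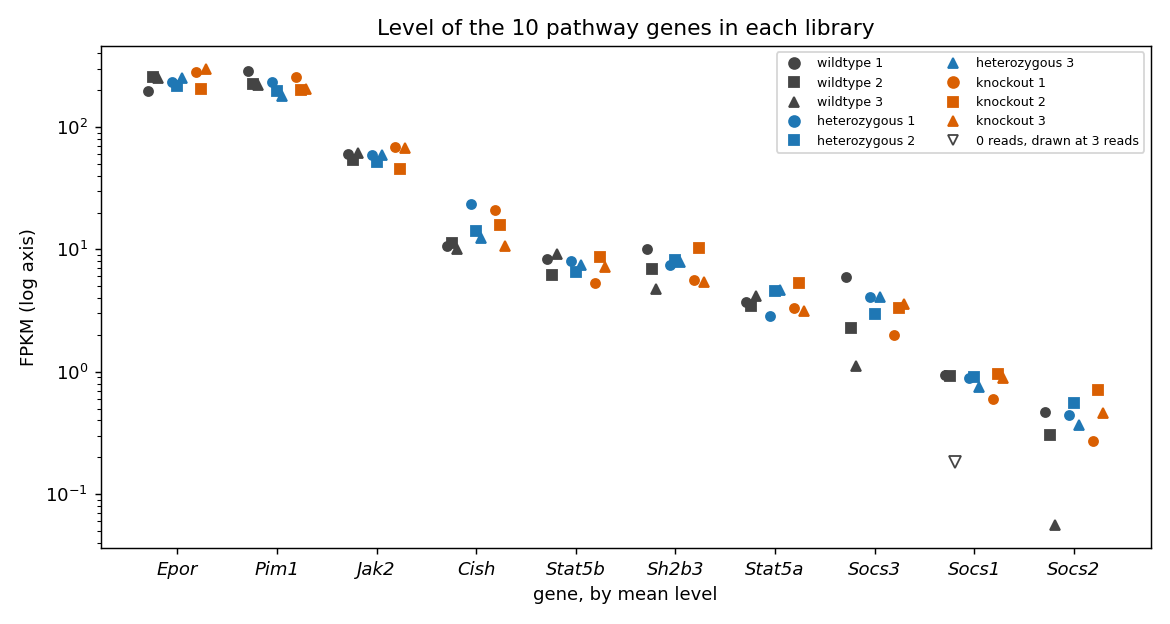
Level of each of the 10 genes in each library, in FPKM on a log axis, with colour for genotype and symbol for replicate. Epor and Pim1 sit near 200 FPKM and Socs2 below 1, and wildtype 3 is the lowest point for Socs1, Socs2, Socs3 and Sh2b3; its Socs1 value of 0 is drawn as an open triangle at the level of 3 reads.

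The receptor was among the most abundant transcripts. Epor (ENSMUSG00000006235, chromosome 9, 21958897 to 21963506, minus strand, mm10, as for all positions below) was at 198, 256 and 252 FPKM in the wildtype group, 234, 215 and 253 in the heterozygous group, and 279, 203 and 299 in the knockout group (replicates 1, 2 and 3). Its level exceeded that of 96.0% to 97.3% of the tested genes in each library. The genotypes overlapped, with the highest and the second lowest value both in knockout libraries. Epor and Gata1, the GATA factor of the erythroid lineage, had their lowest values in the same pair of libraries, wildtype 1 (Gata1 184 FPKM) and knockout 2 (171 FPKM). These were also the libraries with the most leukocyte marker RNA. Klf1 also had its lowest values there, 319 FPKM in wildtype 1 and 309 FPKM in knockout 2. Tfrc was lowest in knockout 2 (351 FPKM) but at 475 FPKM in wildtype 1. Alas2 did not share this order. It was at 7090 FPKM in wildtype 1 and 6811 FPKM in knockout 2, against a lowest value of 2884 FPKM. The sum of 8 erythroblast markers, Alas2 among them, was 25465 and 23283 FPKM in wildtype 1 and knockout 2, within a range of 13656 to 26153 FPKM. In such bulk RNA, fewer cells of a type and less RNA per cell cannot be told apart. With the leukocyte marker mean as a term in limma, the log2 difference of Epor from wildtype was 0.17 for knockout and 0.03 for heterozygous libraries. Beyond this fit, the part of the other cells in the Epor level was not tested.

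Jak2 (ENSMUSG00000024789, chromosome 19, 29251828 to 29313080, plus strand), the kinase bound to the receptor, was the third most abundant of the 10. It was at 60.03, 53.4 and 61.9 FPKM in the wildtype group, 59.1, 51.3 and 59.0 in the heterozygous group, and 68.1, 45.3 and 67.0 in the knockout group. Knockout libraries thus held both the highest and the lowest value. Dividing Jak2 by Epor within a library, which removes the library's scaling factor, gave a median ratio of 0.239. The ratio ran from 0.208 in wildtype 2 to 0.303 in wildtype 1, and its genotype means were 0.252 ± 0.0475 for wildtype, 0.241 ± 0.0099 for heterozygous and 0.230 ± 0.0118 for knockout (SD, n = 3). Jak1, a kinase used by other cytokine receptors, was more abundant than Jak2 in each library, by 1.20 to 1.85 times.

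Transcripts of the STAT5 factors were scarce beside those of the receptor. Stat5b (ENSMUSG00000020919, chromosome 11, 100780731 to 100850724, minus strand) was at 8.40, 6.23 and 9.14 FPKM in the wildtype group, 8.07, 6.47 and 7.45 in the heterozygous group, and 5.33, 8.61 and 7.16 in the knockout group. Stat5a (ENSMUSG00000004043, chromosome 11, 100859351 to 100885169, plus strand) was at 3.70, 3.44 and 4.14 FPKM in the wildtype group, 2.88, 4.58 and 4.68 in the heterozygous group, and 3.31, 5.31 and 3.14 in the knockout group. Neither gene separated the genotypes. Stat5b exceeded Stat5a in each library, by 1.41 times in heterozygous 2 to 2.81 times in heterozygous 1. The lowest levels, heterozygous 1 for Stat5a and knockout 1 for Stat5b, rested on 177 and 394 recovered reads, and no library had fewer than 125 reads for Stat5a or 257 for Stat5b. Stat5a shares 72 exon bases with Stat3 on the opposite strand, and the sources used here do not say whether strand was kept.

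Pim1 (ENSMUSG00000024014, chromosome 17, 29490753 to 29496112, plus strand), a STAT5-induced kinase that promotes survival, was close to the receptor in level. It was at 287, 224 and 219 FPKM in the wildtype group, 232, 195 and 179 in the heterozygous group, and 259, 202 and 205 in the knockout group. The heterozygous group held the 2 lowest values and the wildtype group the highest, with overlap between all groups. Wildtype 1, the highest, was also the library with the most immediate early RNA (12 genes summed, 1298 FPKM against 372 to 648 in the other 8), and its Pim1 to Epor ratio of 1.45 compared with 0.686 to 0.996 elsewhere. An unplanned limma fit held the mean log2 level of these 12 genes as a term. In it the log2 difference of Pim1 from wildtype was -0.09 for knockout and -0.23 for heterozygous libraries. Beyond this fit, the part of that early response in the Pim1 level was not tested. An antisense gene, Gm26885, shares 488 exon bases with Pim1.

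Cish (ENSMUSG00000032578, chromosome 9, 107296026 to 107302784, plus strand), which encodes an SH2 protein that binds the phosphorylated receptor and blocks STAT5 docking, had the largest difference of the 8 tested genes in both comparisons with wildtype. It was at 10.7, 11.2 and 10.001 FPKM in the wildtype group, 23.6, 14.1 and 12.5 in the heterozygous group, and 20.9, 15.8 and 10.7 in the knockout group. The 3 wildtype libraries lay close together, the 3 heterozygous ones were all above them, and knockout 3 fell inside the wildtype range. Recovered reads for Cish numbered 200 to 806 per library, and counting error is not negligible for the closest pair: the 95% exact Poisson intervals of wildtype 2 (9.81 to 12.7 FPKM) and heterozygous 3 (11.3 to 13.7 FPKM) overlap. The mean was 10.6 ± 0.597 FPKM for wildtype, 16.7 ± 6.00 for heterozygous and 15.8 ± 5.07 for knockout (SD, n = 3). Limma gave a log2 difference of 0.56 ± 0.27 (SE) between heterozygous and wildtype, with an unadjusted p of 0.0672 and an adjusted p of 0.9999. Between knockout and wildtype it gave 0.49 ± 0.27, with an unadjusted p of 0.103 and an adjusted p of 0.9997. Neither difference passed the test. Without heterozygous 1 the first was 0.30, and without knockout 1 the second was 0.27. Cish was at 10.7 FPKM in wildtype 1, with 3447 FPKM of leukocyte markers, and at 10.001 FPKM in wildtype 3, with 489 FPKM. With the leukocyte marker mean as a term the differences from wildtype were 0.57 for heterozygous and 0.50 for knockout libraries. Beyond this fit, the part of other cells in the Cish level was not tested. 2 antisense-strand genes share exon bases with Cish (479 with Gm17041 and 261 with Gm17040).

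Another gene of the pathway with this library pattern was Fam132b, which encodes erythroferrone, an erythropoietin-induced hormone that lowers hepcidin. It was at 6.79, 5.40 and 6.96 FPKM in the wildtype group, 12.3, 7.01 and 5.98 in the heterozygous group, and 11.4, 7.14 and 5.82 in the knockout group. As for Cish, heterozygous 1 and knockout 1 were the 2 highest libraries. Their mean was 1.99 times the median of the other 7 libraries for Cish and 1.74 times for Fam132b. Ranked by Pearson correlation of log2(FPKM + 1) over the 9 libraries, Fam132b was the nearest of all tested genes to Cish (r = 0.897, Spearman's rho 0.717). Next came Kat6b, Fbxl18, Enthd2 and Strada (r = 0.834 to 0.888), none of them among the pathway genes listed here. Each had a higher rho than Fam132b (0.867 to 0.917), so the pattern was not particular to the pathway. Fam132b and this ranking were chosen after the values were seen, and Cish and Fam132b are high in the same 2 libraries. The 2 libraries have the same replicate number, come from different genotypes, and belong to the deeper set. Pim1 was highest in wildtype 1, with knockout 1 (259 FPKM) and heterozygous 1 (232 FPKM) next. Bcl2l1, the survival gene for Bcl-xL, was highest in wildtype 1 (351 FPKM), next in knockout 1 (311 FPKM) and lowest in heterozygous 1 (226 FPKM).

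**Figure D2:**
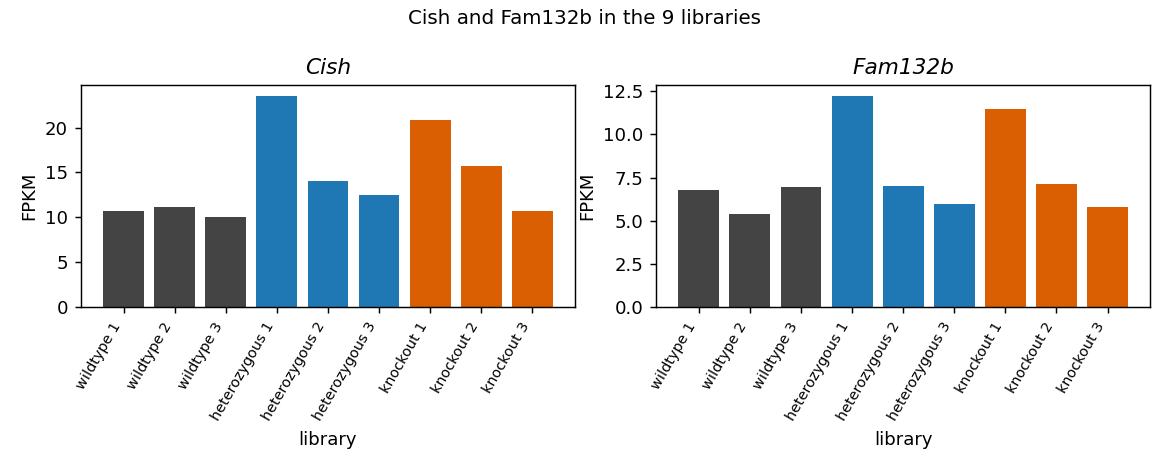
FPKM of Cish and of Fam132b in each of the 9 libraries, as bars from 0 coloured by genotype. Heterozygous 1 and knockout 1 are the 2 tallest bars in both panels (23.6 and 20.9 FPKM for Cish, 12.3 and 11.4 FPKM for Fam132b).

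Socs3 (ENSMUSG00000053113, chromosome 11, 117966079 to 117970047, minus strand), a feedback inhibitor that blocks JAK kinases and is induced by many cytokines, varied most among the 8 tested genes of the 10. Its values were 5.99, 2.28 and 1.12 FPKM in the wildtype group, 4.10, 2.96 and 4.08 in the heterozygous group, and 1.99, 3.29 and 3.57 in the knockout group. Wildtype libraries held both the highest and the lowest value, 5.34-fold apart, so the genotypes could not be separated. The SD of Socs3 over the 9 libraries, 0.50 on the log2(FPKM + 1) scale, exceeded that of 88.1% of tested genes, against a median of 0.22 over all of them. Zfp36, an immediate early gene, was among the 5 genes with the pattern nearest to Socs3 (r = 0.984, rho 0.983), together with Padi2, Tmem71, Csf2rb2 and Ifitm1 (r = 0.978 to 0.989). Fos, the classical immediate early gene, was also highest in wildtype 1 (252 FPKM) and lowest in wildtype 3 (30.8 FPKM). Of the 12 immediate early genes, 10 were highest in wildtype 1 but only 4 were lowest in wildtype 3. Jund (135 FPKM) and Btg2 (158 FPKM) were highest in wildtype 3, and the sum there, 593 FPKM, was the third highest. These correlations describe 9 libraries that differ in leukocyte content and depth. The Socs3 difference from wildtype was 0.09 for knockout and 0.36 for heterozygous libraries in the main fit. With the leukocyte marker mean as a term these were -0.04 and 0.25, and with the depth set as a term 0.21 and 0.47. Beyond these fits, the part of either in the Socs3 level was not tested.

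Sh2b3 (ENSMUSG00000042594, chromosome 5, 121815488 to 121837646, minus strand) encodes the adaptor LNK, which binds JAK2 and dampens its signal in blood progenitors. It was at 10.03, 6.91 and 4.76 FPKM in the wildtype group, 7.41, 8.12 and 7.81 in the heterozygous group, and 5.63, 10.3 and 5.39 in the knockout group. The heterozygous values lay close together, inside the span of both other groups. Sh2b3 and the summed macrophage markers shared their extreme libraries. Knockout 2 and wildtype 1 were highest in both (1124 and 974.9 FPKM of macrophage markers), and wildtype 3 was lowest in both (83.4 FPKM). Knockout 1 and 3 came next from below (311 and 328 FPKM). Between these the order differed: heterozygous 2 had more Sh2b3 than heterozygous 1 but a lower macrophage sum (549 against 631 FPKM). B cell and natural killer cell markers were also highest in wildtype 1 and knockout 2 and lowest in wildtype 3. With the leukocyte marker mean as a term in limma, the log2 difference of Sh2b3 from wildtype was -0.12 for knockout and 0.06 for heterozygous libraries. The part of any single one of these cell types in the Sh2b3 level was not tested. Sh2b3 shares 99 exon bases with Atxn2 on the opposite strand.

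Socs1 and Socs2, inhibitors of JAK kinases and of STAT5-activating receptors, were near the limit of detection. Socs1 (ENSMUSG00000038037, chromosome 16, 10782240 to 10785536, minus strand) was at 0.944, 0.920 and 0 FPKM in the wildtype group, 0.881, 0.899 and 0.752 in the heterozygous group, and 0.603, 0.954 and 0.882 in the knockout group. No read was recovered in wildtype 3, one of the deeper libraries, which allows up to 0.184 FPKM (3 reads). In the other 8 libraries Socs1 had 8 to 17 reads, and the lowest of their 95% Poisson bounds was 0.289 FPKM. Socs2 (ENSMUSG00000020027, chromosome 10, 95385362 to 95417180, minus strand) was at 0.470, 0.303 and 0.0554 FPKM in the wildtype group, 0.445, 0.559 and 0.364 in the heterozygous group, and 0.273, 0.706 and 0.456 in the knockout group. Wildtype 3 was again lowest, with 2 reads (95% exact Poisson interval 0.0067 to 0.200 FPKM), and knockout 2 highest. Intervals cover counting error only. With no filter, limma put knockout above wildtype by 0.22 ± 0.24 (log2, SE) for Socs1 and by 0.22 ± 0.14 for Socs2, with adjusted p = 1.0 for both. The wildtype means of both genes rested on 1 low library, which had the least leukocyte marker RNA.

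**Figure D3:**
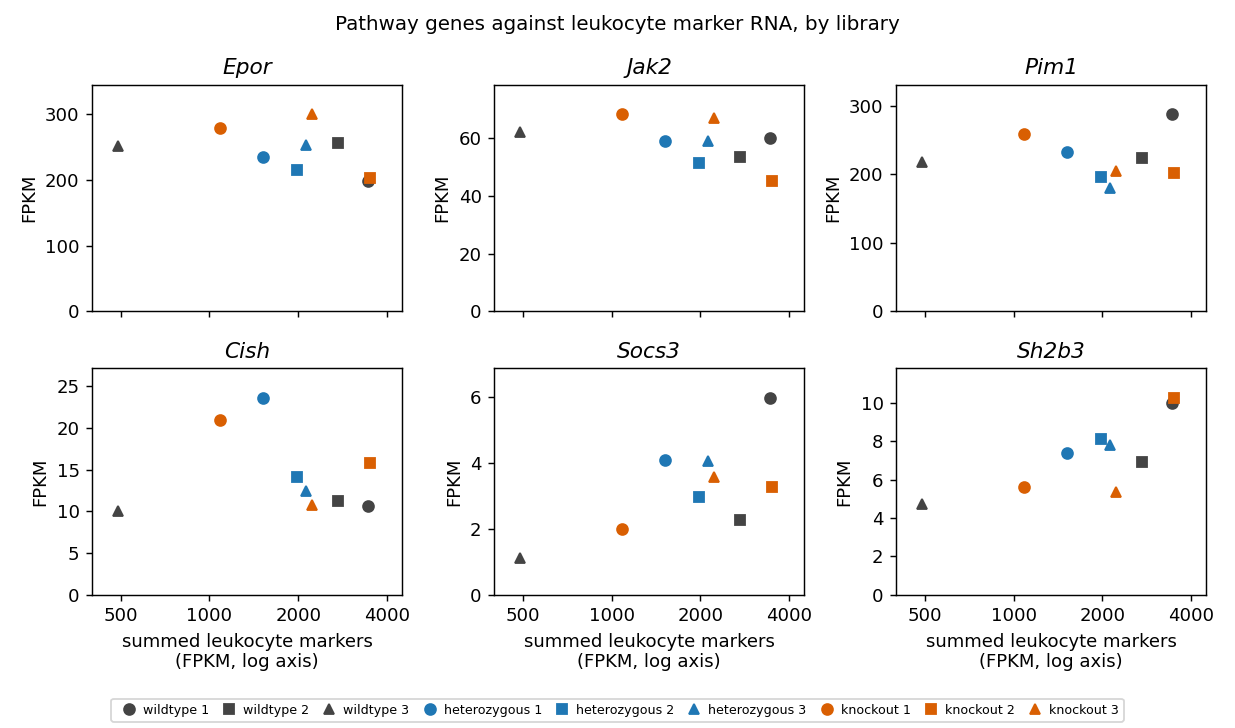
FPKM of 6 pathway genes (y axes from 0) against the summed FPKM of 31 leukocyte markers (log axis), 1 point per library. Wildtype 3 is the point at 489 FPKM on the left of each panel; it is lowest for Socs3, Sh2b3 and Cish and mid-range for Epor, and the 2 rightmost points (wildtype 1 and knockout 2) are the highest for Sh2b3 and the lowest for Epor.

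Genotype was then compared over all genes, with limma on log2(FPKM + 1) and Benjamini-Hochberg adjustment. None of the 8 tested pathway genes differed at an adjusted p below 0.05 in any comparison, and 0% of the 9543 tested genes did. At an unadjusted p below 0.05 there were likewise 0 of 8, against 0.451% of all genes for knockout and wildtype, 1.18% for heterozygous and wildtype, and 0.587% for knockout and heterozygous. Voom on recovered reads also called 0 genes, with 38, 91 and 53 genes at an unadjusted p below 0.05 in these comparisons. The comparisons share libraries, so their values stand side by side and are not independent.

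Between knockout and wildtype, 5 of the 8 genes had higher and 3 lower fitted means. The median difference was 0.02, against 0.01 over all tested genes. Epor differed by 0.13 (95% interval -0.25 to 0.52), Jak2 by 0.02 (-0.36 to 0.40), Stat5a by 0.02 (-0.46 to 0.51) and Stat5b by -0.16 (-0.60 to 0.28). For Pim1 the value was -0.13 (-0.49 to 0.24). The intervals were widest for Socs3 at 0.09 (-0.78 to 0.96) and for Sh2b3 at -0.02 (-0.65 to 0.60). On the scale of FPKM + 1, the interval for Epor spanned ratios of 0.839 to 1.44, so a doubling or halving lay outside it. Socs3 spanned 0.582 to 1.95. The Epor difference was 0.02 without wildtype 1 and 0.30 without knockout 2. That of Socs3 was 0.56 without wildtype 1 and -0.30 without wildtype 3, and that of Sh2b3 was 0.21 without wildtype 1 and -0.29 without knockout 2. Pim1 moved to -0.0041 without wildtype 1, Jak2 to 0.21 without knockout 2 and -0.08 without knockout 1, and Stat5a to -0.17 without knockout 2. Over all alternatives run, Socs3, Stat5a and Sh2b3 each changed sign in 5, Jak2 in 4 and Stat5b in 1, while Epor, Pim1 and Cish kept theirs. No gene of the 8 had groups that did not overlap, against 2.48% of all tested genes (1.08% with knockout higher and 1.4% lower). The sign of the Socs3 difference turned under quantile normalization (-0.01) and that of Stat5a with voom (-0.02).

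Between heterozygous and wildtype libraries, 4 genes had higher and 4 lower fitted means, with a median of 0.03 against -0.0020 over all tested genes. Epor differed by -0.0020 (-0.39 to 0.39), Jak2 by -0.05 (-0.43 to 0.33) and Pim1 by -0.26 (-0.63 to 0.10). Stat5b was at -0.09 (-0.53 to 0.35) and Stat5a at 0.07 (-0.42 to 0.55). Socs3 gave 0.36 (-0.51 to 1.23) and Sh2b3 0.14 (-0.48 to 0.76). Cish was the 1 gene of 8 whose groups did not overlap, with each heterozygous library above each wildtype library. Of all tested genes 1.29% had that order, 3.07% the opposite one, and 4.36% either. The exact 2-sided permutation p for Cish was 0.1, the smallest that 3 against 3 libraries allow. Under quantile normalization the Epor difference turned to 0.15, that of Jak2 to 0.03, and that of Pim1 shrank to -0.07.

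Between knockout and heterozygous libraries, 3 genes had higher and 5 lower fitted means, with a median of -0.06 against 0.0037 over all tested genes. Epor was at 0.14 (-0.25 to 0.53), Jak2 at 0.07 (-0.31 to 0.45) and Pim1 at 0.13 (-0.23 to 0.50). Cish was at -0.07 (-0.68 to 0.54). The remaining values ran from -0.27 for Socs3 (-1.14 to 0.60) to -0.04 for Stat5a (-0.53 to 0.45). No gene of the 8 had groups that did not overlap, against 4.48% of all tested genes (2.61% with knockout higher and 1.88% lower). Quantile normalization turned the sign for Stat5a (0.0088).

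**Figure D4:**
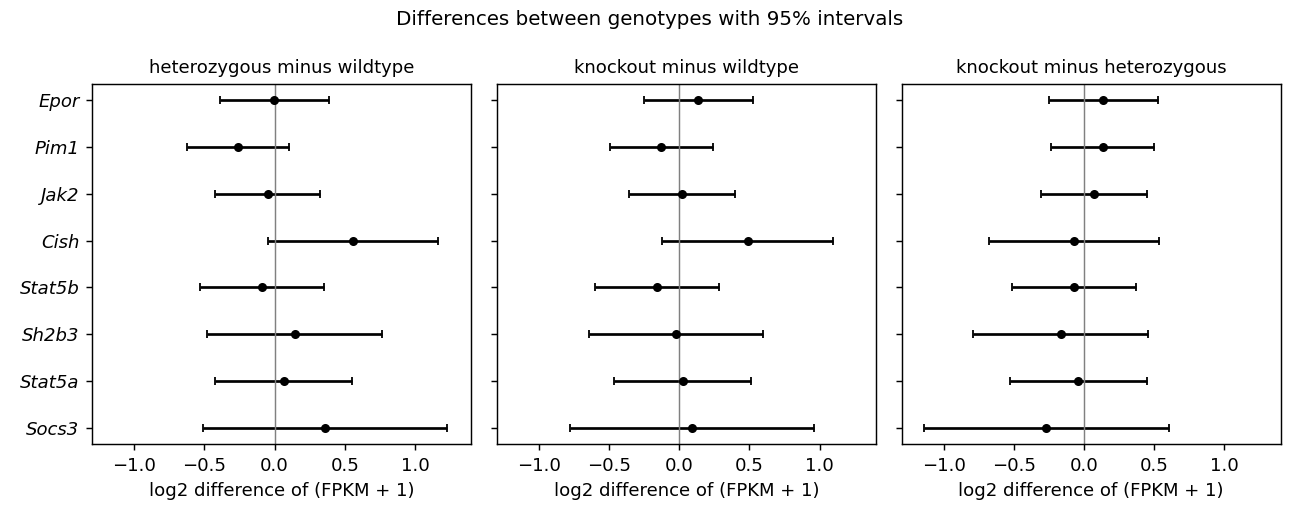
Log2 differences of FPKM + 1 between genotypes for the 8 tested genes (points) with 95% intervals from limma (bars), for each of the 3 comparisons. Each interval includes 0; Cish lies farthest to the right in the first 2 panels (0.56 and 0.49).

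Depth was another structure across libraries, and it ran together with leukocyte content and with Alas2. The 4 shallower libraries had the highest mean log2 levels of leukocyte markers, 4.96 to 5.52. The 5 deeper ones were at 2.54 to 4.63. By summed FPKM of the markers the 2 sets overlapped. Heterozygous 2 of the shallower set was at 1978 FPKM, below heterozygous 3 (2122 FPKM) and knockout 3 (2228 FPKM) of the deeper set. Alas2 was at 6379 to 7458 FPKM in the shallower set and 2884 to 4069 FPKM in the deeper set. Differences by depth and by cell content therefore cannot be told apart. Epor was at 198 to 256 FPKM in the 4 shallower libraries and 234 to 299 FPKM in the 5 deeper ones, and the corresponding ranges for Jak2 were 45.3 to 60.03 and 59.0 to 68.1 FPKM. Within the shallower set, Epor was at 203 FPKM in the 1 knockout library and 227 FPKM on average in the 2 wildtype libraries. Within the deeper set, the knockout mean was 289 FPKM and the 1 wildtype library was at 252 FPKM, so the sign of the difference was opposite in the 2 sets. Cish was higher in knockout than in wildtype libraries within both sets (15.8 against 10.9 FPKM, and 15.8 against 10.001 FPKM). Each of these rests on 1 library on one side, which allows no test. With the depth set as a term in limma, the difference between knockout and wildtype was 0.04 for Epor, -0.08 for Jak2, 0.15 for Sh2b3 and 0.48 for Cish, and none of the 8 genes passed the test.

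The other genes of the pathway were read from a list of 73, of which 71 were in the table and 61 passed the filter. None of the 61 passed the test in any comparison, over all genes. Between knockout and wildtype, 37 had higher and 24 lower fitted means (median 0.05, against 0.01 over all tested genes). The counts were 39 and 22 between heterozygous and wildtype (median 0.03 against -0.0020). Between knockout and heterozygous they were 28 and 33 (median -0.01 against 0.0037). Of all tested genes, 52.7%, 49.4% and 51.1% had higher fitted means in these comparisons, in this order.

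Among ligands and receptors, Epo, Thpo and Ghr were listed at 0 in all libraries. Tfr2, a receptor partner of Epor, was the most abundant of this group at 36.9 FPKM on average. It was lowest in wildtype 1 (23.0 FPKM) and highest in wildtype 3 (45.1 FPKM). Csf2rb, the shared chain of the interleukin-3 family receptors, and Il3ra had the opposite order, from 1.04 FPKM in wildtype 3 to 11.7 FPKM in wildtype 1 for Csf2rb and from 0.751 to 5.79 FPKM for Il3ra. Over all tested genes, 52.7% had higher fitted means in knockout than in wildtype and 49.4% in heterozygous than in wildtype. All 6 tested genes of the group had higher fitted means in knockout than in wildtype, by 0.05 to 0.26. They were also higher in heterozygous than in wildtype, by 0.12 to 0.43. None passed the test, and for 5 of the 6 the leukocyte-poor wildtype 3 or the immediate-early-rich wildtype 1 lay at an extreme. Their part in these differences was not tested.

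Of the other JAK and STAT genes, Jak1 averaged 90.1 and Stat2 34.5 FPKM. Stat2, which carries interferon signals, was thus several-fold above both STAT5 genes. The 7 tested genes had differences between knockout and wildtype of -0.06 (Stat6) to 0.34 (Stat2).

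The most abundant of the other negative regulators were Ptpn6, the phosphatase SHP-1 that removes phosphate from the receptor complex, Dok1, a docking protein, and Ptpn11, the phosphatase SHP-2. They averaged 51.8, 48.3 and 33.3 FPKM. Ptpn6 varied 4.92-fold, from 16.7 FPKM in wildtype 3 to 82.1 FPKM in knockout 2, the same pair of extremes as the leukocyte marker sum. Dok1 (38.7 to 59.6 FPKM) and Ptpn11 (29.9 to 37.7 FPKM) varied little. Of 18 tested regulators, 13 had higher and 5 lower fitted means in knockout than in wildtype libraries, against 52.7% higher over all tested genes.

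In the adaptor, PI3 kinase and MAP kinase branch, Foxo3, a factor restrained by AKT, averaged 105.6 FPKM, Mapk3 61.4 and Shc1, an adaptor of activated receptors, 46.8 FPKM. Differences between knockout and wildtype ran from -0.16 (Gab2) to 0.22 (Plcg1) over the 17 genes. Among the other targets, Tfrc averaged 469, Bcl2l1 275 and Ccnd3, the D-type cyclin that times erythroid divisions, 230.1 FPKM. Bcl2l1 was at 295 ± 62.1 FPKM for wildtype, 246 ± 25.5 for heterozygous and 285 ± 25.9 for knockout (SD, n = 3). Ccnd3 ran from 145 FPKM in wildtype 1 to 350.3 FPKM in wildtype 3, wider within wildtype than between the genotype means of 240.4, 233 and 216 FPKM.

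For Epor, the 5 tested genes with the nearest pattern over the 9 libraries were Uros, an enzyme of heme synthesis, Kcnn4, a potassium channel of red cells, Ngly1, Fn3krp and Mxd3 (r = 0.961 to 0.974, rho 0.933 to 0.983). They were picked as the highest of 9543 genes, and like Epor each was lower in wildtype 1 and knockout 2 than in knockout 1 and knockout 3.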

How the data were processed

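RNA sequencing covered 9 libraries, 3 per genotype. The authors deposited 1 table of abundance values for 20368 genes, taken here as FPKM: the table names no unit, and FPKM was inferred because each gene's values are whole reads times a constant. TopHat, Picard, DESeq2 and the build mm10 appear in the submitters' processing notes, with no versions or roles. No source used here gives strand, read layout or annotation, and whether a fragment or a read was counted is unknown. Per gene, the values stepped in whole reads (tolerance 0.05 reads) for each of the 14147 genes detected in 2 or more libraries; recovered reads are the smallest whole numbers that fit, so a common factor could be missed. Library factors taken from these steps matched median-of-ratios size factors (11276 genes), so the deposited FPKM were scaled by such factors rather than by library totals. Library identity was checked for 36 pairs, and the closest pair still differed (chi-square per degree of freedom 8.69).

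Genes with at least 1 FPKM in 3 libraries (9543) were analysed as log2(FPKM + 1), which understates changes of low genes. Limma 3.58.1 (R 4.3.3; lmFit, eBayes with trend) fitted 1 mean per genotype over all 9 libraries, with 2-sided contrasts and Benjamini-Hochberg adjustment at 0.05, and was tested on simulated data. Python 3.11.15 with numpy 2.4.6, pandas 2.3.3, scipy 1.17.1, Biopython 1.88 and matplotlib 3.10.9 did the rest. Positions came from GENCODE M21 (mm10). Named genes were the 10 members, the 3 most abundant of each pathway group, fixed markers, and the 5 nearest patterns to Epor and to Socs3; Fam132b, Bcl2l1 beside it, the patterns nearest to Cish and the genes at the ends of a range were chosen after values were seen. Some genes that this rule names are not reported here. The members and lists were chosen with earlier results of these data known. Alternatives covered scaling, filter, pseudocount (0.1 and 5), trend, voom, covariates, replicate block and each library left out. Replicate numbers are in the labels, without a stated litter, batch or day. Same-numbered libraries were compared by their deviations from the group mean. For knockout with heterozygous the correlations were 0.20, 0.18 and 0.41, each over 0.1, the criterion used here for pairing. The main fit nevertheless held no pairing term for any comparison. Pairing entered only as the replicate block among the alternatives. For knockout with wildtype they were -0.57, 0.51 and 0.33, and for heterozygous with wildtype 0.13, 0.18 and 0.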

Additional observations from a re-analysis of the deposited data

How the results depend on the processing

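None of the 22 alternatives, whether or not a library was left out, called any gene or any pathway gene in any of the 3 comparisons; the count of calls was 0 throughout. The count at an unadjusted p below 0.05 moved more. It ran from 18 (limit of 5 FPKM) to 2097 genes between knockout and wildtype, from 62 to 714 between heterozygous and wildtype, and from 29 to 1552 between knockout and heterozygous. Each highest count came from leaving out wildtype 3 and knockout 2 together, an alternative chosen after seeing the data. In that fit limma gave Epor a difference of 0.36 between knockout and wildtype (unadjusted p 0.0358, adjusted p 0.2048). It gave Sh2b3 -0.52 (unadjusted p 0.0169, adjusted p 0.1615). The fit with the immediate early mean as a term was also not planned. With the replicate block, calls stayed at 0 in each comparison. Under that block limma gave Cish an unadjusted p of 0.0403 (difference 0.49) between knockout and wildtype and of 0.0237 (0.56) between heterozygous and wildtype. It gave Pim1 0.0296 (-0.26) between heterozygous and wildtype, and no other of the 8 genes was below 0.05. In the same fits 56 and 161 of 9543 genes were below 0.05, and the numbers did not meet the criterion for pairing with wildtype. The adjusted p for Cish over the alternatives was at least 0.465 in the first and 0.6423 in the second. Cish kept a positive sign under all 22 alternatives in both, from 0.27 to 0.72 and from 0.30 to 0.73. The Socs3 difference between heterozygous and wildtype was 0.36, 0.79 with voom, 0.83 without wildtype 1 and -0.03 without wildtype 3, and these causes were not tested. With 3 libraries per genotype the median half-width of the 95% interval was 0.46 for the 8 pathway genes and 0.42 for all tested genes, which limits what can be seen.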
